A study of Homo sapiens with 27 samples.

Results

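Torin1, an ATP-competitive inhibitor of the mTOR kinase, was given to unedited 501mel cells, a human melanoma line with high MITF, and poly(A) RNA was counted at the 3′ ends of transcripts. Of the 27 libraries of the series, 5 describe this response. They are WT control replicates 1, 2 and 3, labelled non-treated, and WT Torin replicates 2 and 3, given Torin1 at 250 nM for 12 h. WT here means unedited 501mel cells, which carry an activating BRAF mutation. WT Torin replicate 1 was left out, because its values were identical in all 13523 rows of the table to those of a library labelled as starved in HBSS, a salt solution without amino acids or serum (WT HBSS replicate 3). The members were chosen by these labels, by this identity and by the resemblance of that column to the HBSS libraries in its values. The level of no single gene was used. For comparison, control (12 h) and Torin1 (250 nM, 12 h) libraries of TFE3 KO, TFEB KO and double knockout (DKO) lines were used, with 3 libraries a group, and 2 libraries of WT cells after 12 h in HBSS. Each knockout line is a single clone of 501mel. The labels give DMEM with 10% serum as the medium of all lines, whereas the study's methods give RPMI for 501mel. The labels give the WT control neither a vehicle nor a time, so a vehicle effect cannot be told apart from that of Torin1, and nothing says that the replicates were separate cultures, so p-values measure the spread between these libraries only.

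mTOR works in a pair of complexes. mTORC1 is switched on at the lysosome by amino acids and growth factors, promotes translation, ribosome production, lipid and nucleotide synthesis, and holds autophagy back. It also phosphorylates TFEB and TFE3, transcription factors that bind E-box motifs in lysosomal genes, and so holds them in the cytoplasm when nutrients are plentiful. The melanocyte form of their relative MITF binds the same motifs and is mostly nuclear. mTORC2 activates AKT, which in turn keeps FOXO factors out of the nucleus. Torin1 blocks both complexes.

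The 5 libraries held 3963182 to 6050853 reads on 13459 genes. A value is reads relative to the library total (CPM) after the authors' library scaling, and 3 reads, the least that is read as a level here, correspond to 0.493 to 0.711. Markers of the melanocyte lineage were high in both groups, with MITF at 719 to 788 in the control and 732 to 735 in the Torin libraries and PMEL, the fibril protein of melanosomes, at 2334 or more in every library. The fibroblast markers COL1A1, PDGFRA and LUM had no value above 1.64 in any library, and COL3A1, DCN and the 10 immune, epithelial and endothelial markers on the list were not analysed here. In bulk libraries such as these, fewer cells of a kind and less RNA per cell cannot be told apart.

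Alongside the genes the table held 64 ERCC spike-ins, synthetic RNAs added to a sample at known amounts. They took 3.21% to 3.77% of the reads of the WT control libraries, 4.43% and 4.79% of those of the Torin libraries and 3.83% and 3.85% of those of the HBSS libraries. Their mixture also differed between the Torin and the control libraries, and the reason was not tested. ERCC-00130 stood at 10959, 11826 and 13072 in the control libraries and at 4762 and 4545 in the Torin libraries, and ERCC-00002 at 7139, 7496 and 8093 against 18456 and 16374. Of the 44 spike-ins with a mean of at least 5, 11 were lower in every one of the 11 Torin libraries of the 4 genotypes than in any of the 14 other libraries, and 20 were higher. These RNAs do not come from the cells. The Torin libraries of all genotypes thus differed from the other libraries in their spike-ins as well as in treatment, and in the gene results below these cannot be told apart. All spike-ins were left out of the gene tests. Gene values are relative to the reads of a library, and changes in the amount of RNA per cell were not tested.

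The Torin libraries differed from the control libraries in many genes, mostly by less than 2-fold. Of 12991 genes tested, 2640 were higher (20.3%) and 3042 lower (23.4%) in the Torin libraries at an adjusted p under 0.05, which is called passing the test here. The shares of 20.3% and 23.4% are the background for every count of list members that passed below. All p-values come from limma on log2(value + 1) with Benjamini-Hochberg adjustment over all 12991 genes. A gene was called when it passed and differed at least 2-fold, and 724 genes were called higher (5.57%) and 509 lower (3.92%). The Torin and control libraries did not overlap in 7806 genes (60.1%), and among the 1233 called genes they did not overlap in 1224. The rule for calling a gene itself favours such separation, so the count among called genes is a description only. A change of at least 4-fold was seen in 37 genes called higher and 19 called lower. Counting the column that was left out as a Torin library gave 460 genes called higher and 332 called lower.

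**Figure D1:**
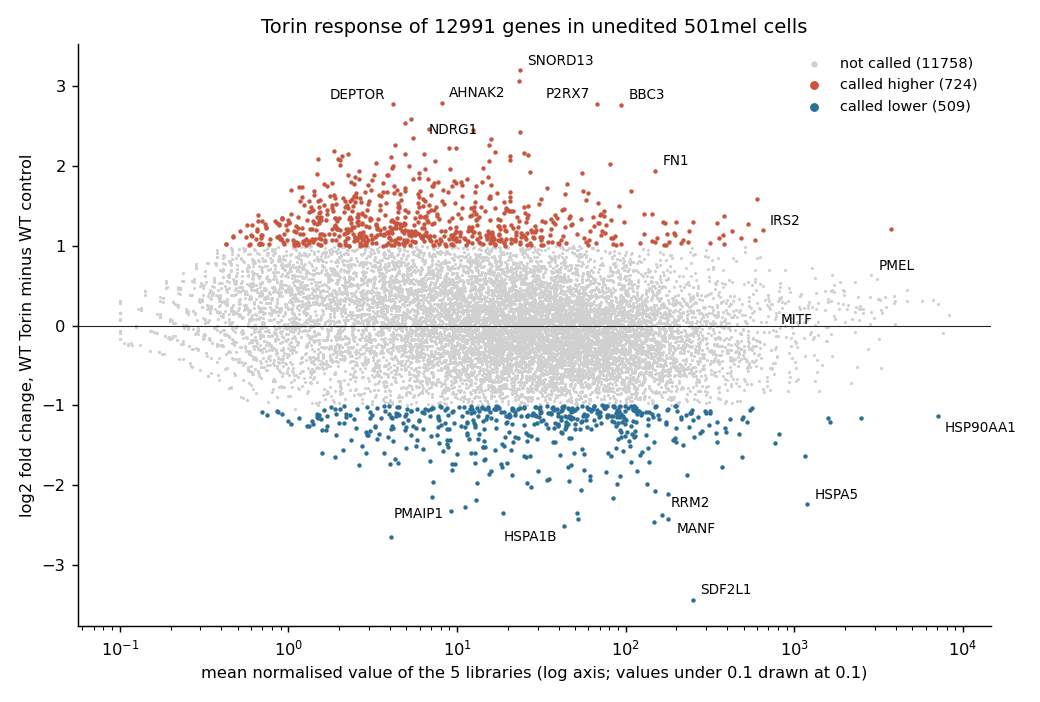
Log2 fold change of WT Torin (2 libraries) minus WT control (3 libraries) against the mean value of the 5 libraries on a log axis, 1 point for each of 12991 genes. The 724 genes called higher are red, the 509 called lower blue, and MITF lies near 0 while SDF2L1 is the lowest labelled point.

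The genes with the steepest rise were of many kinds. P2RX7, an ATP-gated ion channel, stood at 17.9, 18.4 and 22.8 in the control libraries and 136 and 144 in the Torin libraries (log2 fold change 2.78 ± 0.13 (SE), adjusted p = 1e-22). BBC3, which encodes the pro-apoptotic protein PUMA, went from 29.7, 25.5 and 28.1 to 195 and 194 (log2 fold change 2.76 ± 0.11 (SE), adjusted p = 6.3e-26). In both genes every Torin library was more than 5-fold above every control library. The scaffold gene AHNAK2 rose from 0.822, 1.78 and 2.73 to 15.2 and 19.9 (log2 fold change 2.79 ± 0.35 (SE), adjusted p = 3.9e-07), and ADCK3, a kinase-like protein of coenzyme Q synthesis, from 7.72, 8.51 and 7.61 to 49.2 and 45.3. SNORD13, a small nucleolar RNA, had the highest fitted value of genes with a mean of at least 5, with 6.24, 3.96 and 4.29 in the control libraries and 49.2 and 54.3 in the Torin libraries (log2 fold change 3.20 ± 0.20 (SE), adjusted p = 2.7e-18). Reads on SNORD13 in a poly(A) library need not come from the mature RNA. The others among the 10 highest were OLFML2A (2.59 ± 0.27), TMEM198B (2.45 ± 0.21), LOC100131564 (3.07 ± 0.23), LOC100288152 (2.35 ± 0.30) and ANKRD20A5P (2.46 ± 0.33), all as log2 fold change ± SE, and the last is a pseudogene of a multicopy family, so its reads are uncertain.

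At the other end, 3 of the 10 most reduced genes encode chaperones or folding factors of the endoplasmic reticulum, SDF2L1, CRELD2 and MANF. Others belong to the cell cycle. CDC25A, the phosphatase that activates the kinases of S phase entry, was at 72.3, 84.3 and 75.1 in the control libraries and 16.9 and 10.9 in the Torin libraries (log2 fold change -2.42 ± 0.17 (SE), adjusted p = 1.3e-15), and CCNE2, their cyclin E2 partner, at 14.5, 16.4 and 19.5 in the control libraries and 3.28 and 2.13 in the Torin libraries (log2 fold change -2.27 ± 0.25 (SE), adjusted p = 1.9e-10). The imprinted gene PHLDA2 fell from 79.9, 73.0 and 75.9 to 13.8 and 14.5 and ATP1B1, a subunit of the sodium pump, from 30.2, 25.9 and 28.1 to 5.16 and 4.27. PMAIP1, which encodes the pro-apoptotic protein NOXA, was at 13.5, 14.3 and 13.9 in the control libraries and 0.938 and 3.56 in the Torin libraries (log2 fold change -2.32 ± 0.26 (SE), adjusted p = 3.6e-10). Its 2 Torin values lay far apart, and the log2 fold change was -1.71 without WT Torin replicate 2 and -2.94 without replicate 3. The 10 were completed by HSPA1B and RRM2, described with their groups.

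**Figure D2:**
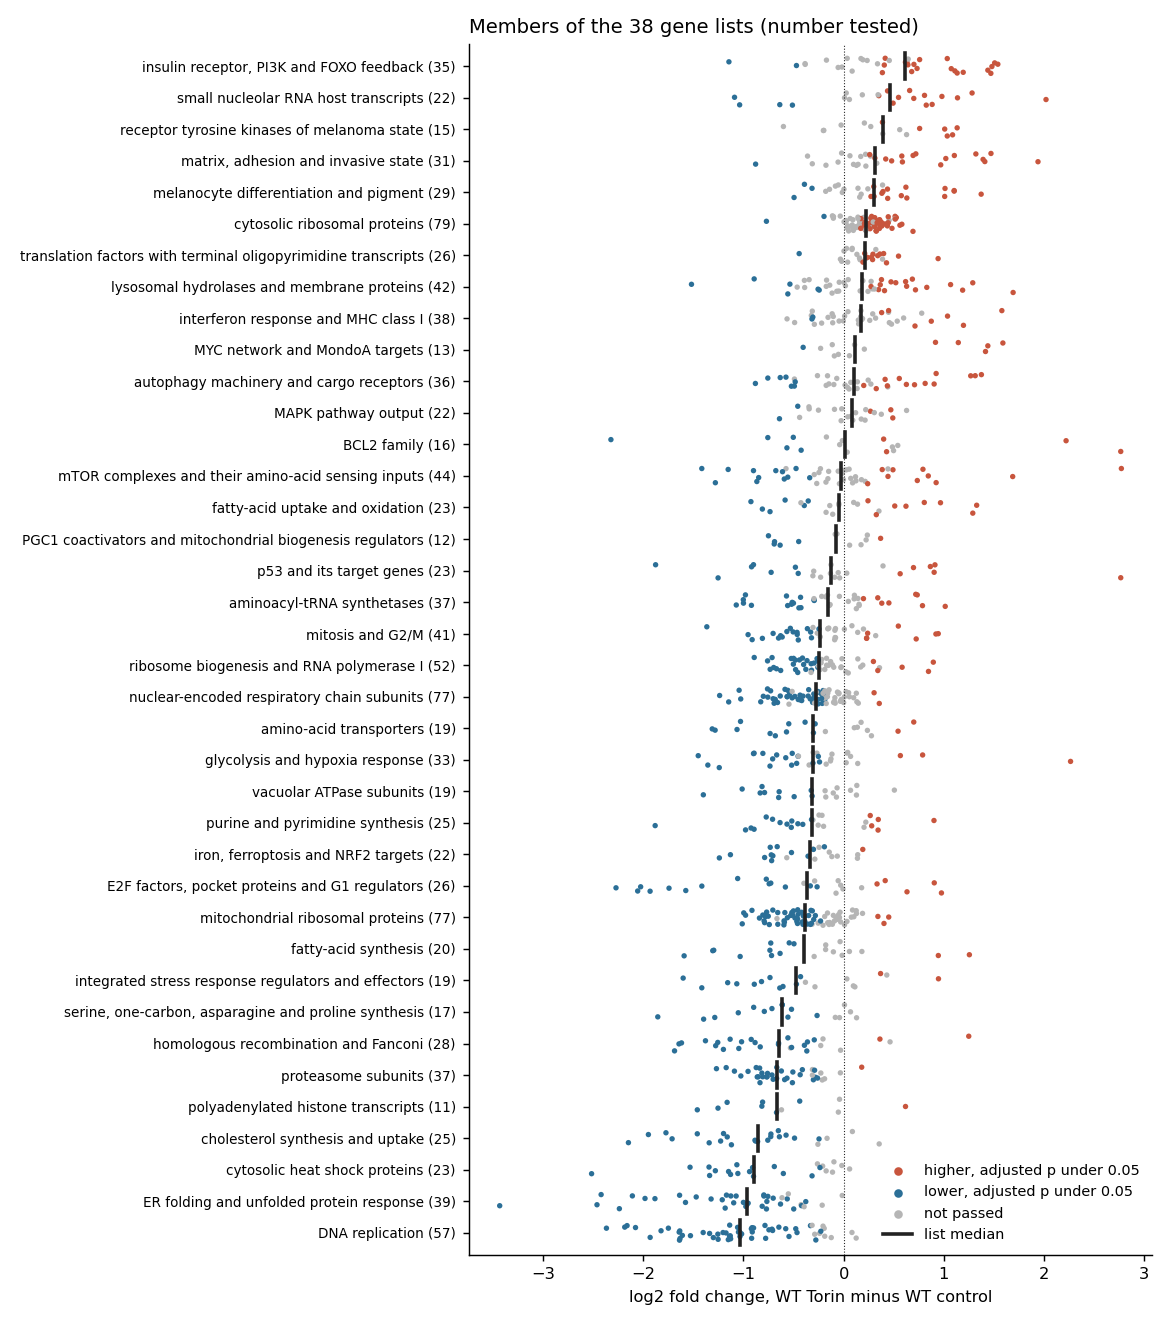
Log2 fold change (WT Torin minus WT control) of every tested member of 38 gene lists, 1 point a gene, lists ordered by their median (black bar) and the number tested in parentheses. Red and blue points passed the test, and DNA replication (median -1.03) and ER folding (median -0.97) lie lowest while the insulin receptor, PI3K and FOXO list (median 0.62) lies highest.

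The targets of the study's knockouts did not pass the test at the RNA level. TFEB stood at 3.45, 3.96 and 2.34 in the control libraries and 5.63 and 4.27 in the Torin libraries (log2 fold change 0.49 ± 0.36 (SE), adjusted p = 0.27), TFE3 at 24.3, 23.8 and 24.0 in the control libraries and 20.4 and 17.5 in the Torin libraries (log2 fold change -0.33 ± 0.19 (SE), adjusted p = 0.17) and MITF at 719, 778 and 788 in the control libraries and 735 and 732 in the Torin libraries (log2 fold change -0.05 ± 0.07 (SE), adjusted p = 0.55). For MITF the groups overlapped. TFEB reads were few, and the 95% interval of its log2 fold change ran from -0.23 to 1.22, so a change of 2-fold is not excluded by these libraries.

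Among 44 genes of the mTOR complexes and their amino-acid sensing inputs, 10 passed higher and 12 lower (median -0.03), shares close to those over all genes. DEPTOR, an inhibitor subunit of both complexes, rose from 0.822, 0.396 and 0.39 to 7.73 and 11.4 (log2 fold change 2.77 ± 0.35 (SE), adjusted p = 5.7e-09), the highest value of the list. Its control values were 2 to 5 reads each, so the fitted fold depends on the added 1. PDCD4, a translation inhibitor that S6 kinase marks for destruction, stood at 60.6, 51.9 and 57.0 in the control libraries and 180.5 and 187 in the Torin libraries (log2 fold change 1.69 ± 0.11 (SE), adjusted p = 5.8e-18). SESN2, a leucine sensor that restrains mTORC1, fell from 19.9, 15.0 and 19.5 to 6.09 and 6.16 (log2 fold change -1.42 ± 0.20 (SE), adjusted p = 1.1e-07), and GATSL2 (CASTOR2, of the arginine sensor family) from 9.70, 6.93 and 6.64 to 2.11 and 3.08. RRAGD, one of the Rag GTPases that recruit mTORC1 to the lysosome, overlapped between groups with 149, 131 and 148 in the control libraries and 159 and 144 in the Torin libraries (log2 fold change 0.09 ± 0.09 (SE), adjusted p = 0.45).

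RNA of genes for insulin and growth factor signalling to PI3K, and of genes that FOXO factors are known to activate, mostly moved upward. Signalling itself was not measured. Of 35 members 20 passed higher and 2 lower, 10 being called higher where 5.57% of all genes were (median 0.62). IRS2, the adaptor that links insulin and IGF1 receptors to PI3K, rose from 414, 453 and 415 to 958 and 999 (log2 fold change 1.19 ± 0.08 (SE), adjusted p = 5.8e-18). FBXO32, a ubiquitin ligase subunit and textbook FOXO target, was at 33.2, 37.2 and 45.1 in the control libraries and 109 and 117 in the Torin libraries (log2 fold change 1.54 ± 0.11 (SE), adjusted p = 4.7e-16). The receptor gene ERBB3 went from 51.8, 61.8 and 52.7 to 97.03 and 91.3, a change that passed without reaching 2-fold (log2 fold change 0.76 ± 0.11 (SE), adjusted p = 1.3e-07). CCNG2, an atypical cyclin, rose from 6.90, 6.53 and 4.29 to 16.4 and 19.7, CITED2 from 4.60, 4.16 and 1.95 to 13.6 and 9.72, and PIK3IP1, an inhibitor of PI3K, from 0.986, 0.594 and 0.39 to 3.52 and 3.56, the last at only a few reads in the control libraries. The FOXO motif GTAAACA was found in 4 of 29 promoters of this list with a RefSeq entry (13.8%, either strand, 250 bases before to 50 after the start site), against 2.18% of the promoters of all genes tested, and 2 of the 4 genes passed higher (median 0.34), as did 15 of the 25 without it (median 0.63).

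Transcripts for ribosomal proteins carry a terminal oligopyrimidine tract and are the classic translational targets of mTORC1. Relative to the reads of a library, the RNA of most of them rose by small steps. Whether their amount per cell rose was not tested. Of 79 cytosolic ribosomal protein genes 46 passed higher and 2 lower, none reached 2-fold (called genes being 5.57% and 3.92% of all), and the median was 0.22. RPL3 stood at 724, 658 and 730.2 in the control libraries and 1134 and 1139.6 in the Torin libraries (log2 fold change 0.69 ± 0.07 (SE), adjusted p = 2.5e-11) and RPL13A at 2883, 2342 and 2558 in the control libraries and 3928 and 3806 in the Torin libraries (log2 fold change 0.58 ± 0.07 (SE), adjusted p = 4.1e-10). RPS26 went the other way, from 317, 276 and 308 to 168 and 183 (log2 fold change -0.77 ± 0.09 (SE), adjusted p = 1e-09). RPS6 overlapped between groups, with 3102, 2438 and 2618 in the control libraries and 3058 and 3029.6 in the Torin libraries, and its adjusted p of 0.033 rose above 0.05 without WT control replicates 2 or 3 or either Torin library, where the log2 fold change was 0.09 to 0.18. Ribosomal protein genes have many processed pseudogenes, so their counts are uncertain.

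Translation factors with the same kind of tract followed, with 12 of 26 higher and 1 lower (median 0.22). EEF2, the translocation factor of the ribosome, was at 1717, 2067 and 2036 in the control libraries and 2769 and 2884 in the Torin libraries (log2 fold change 0.55 ± 0.07 (SE), adjusted p = 1.5e-08), PABPC1, the poly(A)-binding protein, at 1478, 1437 and 1444 in the control libraries and 1801 and 1758 in the Torin libraries (log2 fold change 0.29 ± 0.07 (SE), adjusted p = 0.00027) and EIF4A2, an initiation helicase, at 96.3, 105 and 93.3 in the control libraries and 184 and 195 in the Torin libraries (log2 fold change 0.94 ± 0.09 (SE), adjusted p = 8.2e-12). EEF1A1 did not pass (log2 fold change 0.39 ± 0.20 (SE), adjusted p = 0.12). The chaperonin subunit CCT2 was the member that fell, from 596, 556 and 580.2 to 424 and 424.

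Host transcripts of small nucleolar RNAs also carry such a tract and are degraded when they are translated. Of 22 tested, 13 rose and 4 fell (median 0.47), against 20.3% and 23.4% of all genes. GAS5, the host of many box C/D RNAs, rose from 254, 258 and 259 to 557 and 573 (log2 fold change 1.136 ± 0.08 (SE), adjusted p = 1.3e-16). SNHG7 went from 109, 109 and 105 to 267 and 259.5 and EPB41L4A-AS1 from 39.1, 35.4 and 32.6 to 140.4 and 155 (log2 fold change 2.02 ± 0.10 (SE), adjusted p = 3.3e-21). SNHG1 overlapped between groups (221, 259 and 229.5 against 279.6 and 259, adjusted p = 0.06).

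Factors that build ribosomes moved down by small steps, with 26 of 52 lower, 5 higher and none called where 3.92% of all genes were called lower (median -0.25). MRTO4, which helps assemble the ribosomal stalk, fell from 234, 221 and 237 to 129.8 and 118 (log2 fold change -0.89 ± 0.09 (SE), adjusted p = 1.6e-11), while NOB1, the nuclease that matures the small subunit RNA, rose from 109.6, 85.9 and 106 to 183 and 191 and TAF1C, a subunit of the RNA polymerase I factor SL1, from 139, 183 and 165 to 290.2 and 292. NCL (nucleolin) and POLR1B did not pass, at log2 fold changes of -0.17 ± 0.07 and 0.02 ± 0.11 (± SE).

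MYC itself rose from 15.0, 18.01 and 11.7 to 38.2 and 43.6 (log2 fold change 1.42 ± 0.26 (SE), adjusted p = 5e-05), and so did MXD4, a MAX partner that opposes MYC, from 18.1, 17.6 and 15.6 to 55.1 and 51.7 (log2 fold change 1.59 ± 0.14 (SE), adjusted p = 4e-13). TXNIP, a glucose-uptake inhibitor and target of MondoA, rose from 45.5, 43.5 and 41.8 to 119 and 121 (log2 fold change 1.44 ± 0.09 (SE), adjusted p = 9.1e-18). These were 3 of 5 members of the 13 tested that passed higher, with 1 lower (median 0.11). Without WT Torin replicate 3 the median of this list was -0.02.

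DNA replication had the lowest median of the 38 lists. Of 57 genes 48 were lower and none higher, and 30 were called lower where 3.92% of all genes were (median -1.03, range -2.37 to 0.12). In 49 of the 57 the Torin and control libraries did not overlap, against 60.1% of all genes. RRM2, the regulated subunit of ribonucleotide reductase, fell from 245, 229 and 252 to 47.6 and 44.6 (log2 fold change -2.37 ± 0.09 (SE), adjusted p = 9e-26). CDC6, which loads the replicative helicase, fell from 123, 122 and 121 to 29.5 and 23.7 (log2 fold change -2.16 ± 0.12 (SE), adjusted p = 1.9e-19). PCNA, the sliding clamp of the polymerases, was at 169.8, 155 and 166 in the control libraries and 47.8 and 43.4 in the Torin libraries (log2 fold change -1.82 ± 0.13 (SE), adjusted p = 4.6e-15), UHRF1, which copies DNA methylation to the new strand, at 18.2, 19.4 and 19.9 in the control libraries and 2.58 and 4.50 in the Torin libraries and MCM2, a helicase subunit, at 96.3, 84.5 and 90.0 in the control libraries and 56.5 and 66.8 in the Torin libraries (log2 fold change -0.55 ± 0.12 (SE), adjusted p = 0.00017). The summed level of the 57 genes was 5792 to 5855 in the control libraries and 2876 to 2897 in the Torin libraries.

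E2F factors switch on these genes when cells pass from G1 into S phase. E2F1 fell from 44.2, 55.6 and 46.6 to 11.2 and 12.8 (log2 fold change -1.93 ± 0.20 (SE), adjusted p = 6.8e-11) and E2F2 from 40.9, 38.2 and 39.0 to 11.5 and 6.87 (log2 fold change -2.03 ± 0.19 (SE), adjusted p = 3.9e-12). CCND3 (cyclin D3) was at 77.1, 78.6 and 77.7 in the control libraries and 13.8 and 23.2 in the Torin libraries (log2 fold change -2.06 ± 0.15 (SE), adjusted p = 1.8e-15). CCND1 (cyclin D1) overlapped between groups, with 311, 393 and 384 in the control libraries and 339 and 379.9 in the Torin libraries (log2 fold change -0.01 ± 0.09 (SE), adjusted p = 0.96). CDKN1B, which encodes the CDK inhibitor p27, rose from 47.2, 50.3 and 55.8 to 64.5 and 72.3 (log2 fold change 0.41 ± 0.11 (SE), adjusted p = 0.002), and its adjusted p was 0.062 without WT Torin replicate 3. In all, 14 of 26 members of this list were lower, 8 of them called where 3.92% of all genes were, and 5 higher (median -0.36).

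Promoters of these genes are shown for the E2F motif, since E2F1 and E2F2 carry it themselves. In the RefSeq windows of 250 bases before to 50 after each start site (GRCh38.p14), TTTCCCGC, TTTGGCGC, TTTCGCGC or TTTGCCGC on either strand was found in 21 of 49 DNA replication promoters (42.9%), 5 of 20 of the E2F list (25%) and 5 of 24 of the homologous recombination list (20.8%), against 5.52% of the 9712 promoters of genes tested. Each motif is given with short flanks, or with the 100 bases before the start site where that stretch holds no annotated exon, 5′ to 3′ on the gene's strand, with the motif in capitals. Shown sites of UHRF1, HSP90B1, HSPA8, ASNS and CTSF and the proximal site of GAA lie in an exon of some annotated transcript, upstream of or across the start used here.
E2F1 (chr20:33686386-33686485, minus strand): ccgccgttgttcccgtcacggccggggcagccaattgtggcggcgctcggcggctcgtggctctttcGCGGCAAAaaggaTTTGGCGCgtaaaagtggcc
E2F2 (chr1:23531234-23531333, minus strand): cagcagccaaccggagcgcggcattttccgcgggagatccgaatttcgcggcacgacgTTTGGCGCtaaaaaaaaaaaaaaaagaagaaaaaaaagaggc
GINS2 (chr16:85688955-85689054, minus strand): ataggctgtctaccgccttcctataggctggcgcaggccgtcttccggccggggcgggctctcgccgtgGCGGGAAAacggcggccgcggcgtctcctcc
PCNA (chr20:5126664-5126691, minus strand): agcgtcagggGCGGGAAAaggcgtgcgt
UHRF1 (chr19:4909477-4909504, plus strand): ccgagttttcGCGGGAAAaaaatcagag
Of the 21 replication genes with the motif, 17 passed lower and 12 were called (median -1.13), and of the 28 without it 23 passed lower and 13 were called (median -0.84). The motif is a match of letters and no binding was measured here.

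Homologous recombination and Fanconi genes were lower in 21 of 28 cases and higher in 2 (median -0.65). The exonuclease gene EXO1 fell from 29.1, 42.0 and 35.3 to 12.7 and 8.77 (log2 fold change -1.64 ± 0.18 (SE), adjusted p = 2.9e-10) and RAD54L from 20.2, 20.2 and 20.9 to 5.86 and 5.45. BRCA1 overlapped between groups, and its adjusted p of 0.045 rose above 0.05 on leaving out any of WT control replicates 2 and 3 and the Torin libraries.

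Of 41 mitotic genes 18 were lower and 7 higher (median -0.23), against 23.4% and 20.3% of all genes, and 1 was called lower, a smaller share than the 3.92% of all genes. It was SPC25, a kinetochore subunit (37.96, 31.7 and 35.3 against 13.8 and 12.1, log2 fold change -1.37 ± 0.18 (SE), adjusted p = 1.1e-08). CCNB1 (cyclin B1) fell from 108, 98.0 and 111 to 77.1 and 75.6, while MKI67, the proliferation marker Ki-67, overlapped between groups with 199, 371 and 289 in the control libraries and 238 and 259 in the Torin libraries (log2 fold change -0.16 ± 0.23 (SE), adjusted p = 0.62). CDC25C, a phosphatase of mitotic entry, rose from 10.8, 8.71 and 9.95 to 20.6 and 18.96 (log2 fold change 0.94 ± 0.19 (SE), adjusted p = 4.8e-05).

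Of 11 polyadenylated histone transcripts tested, 7 fell and 1 rose (median -0.67). H2AFZ (H2A.Z) went from 2323, 1860.2 and 1965 to 917 and 904 (log2 fold change -1.16 ± 0.07 (SE), adjusted p = 7.1e-18) and H2AFX (H2A.X) from 45.4, 52.7 and 51.5 to 17.1 and 17.8. HIST2H2BE overlapped between groups (log2 fold change -0.04 ± 0.33 (SE), adjusted p = 0.93). Histone genes are near copies of each other, so reads could be split among them.

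**Figure D3:**
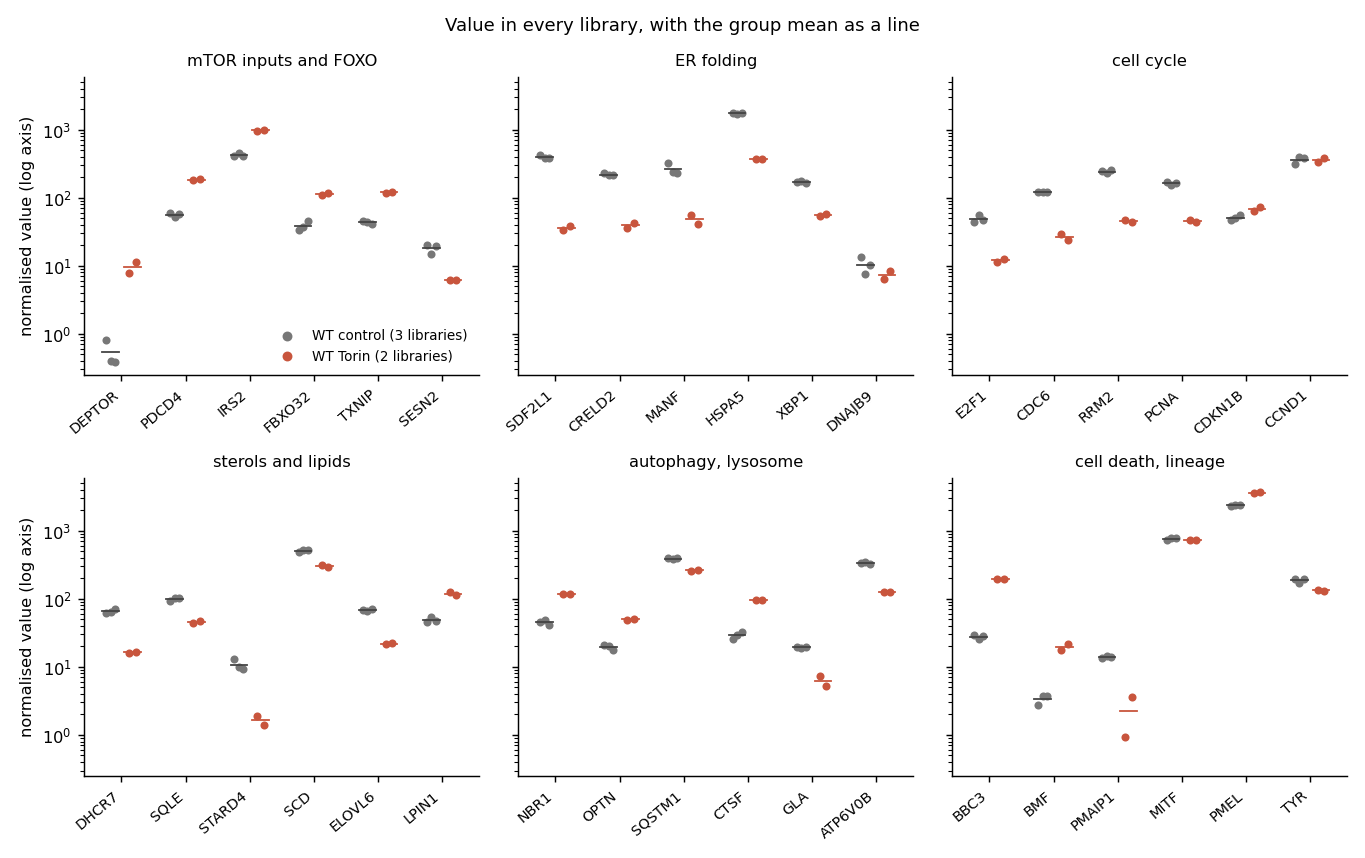
Normalised value in every library (log axis) for 36 genes in 6 groups, grey points for the 3 WT control and red for the 2 WT Torin libraries, lines for the group means. The groups lie apart for most genes shown, such as HSPA5 and CDC6, and overlap or nearly touch for CCND1, DNAJB9 and MITF.

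Genes for protein folding in the endoplasmic reticulum fell together. Of 39 tested 33 were lower and none higher, and 18 were called lower where 3.92% of all genes were (median -0.97, range -3.43 to -0.01). The summed level of the list was 11499 to 12228 in the control libraries and 4714 to 4809.5 in the Torin libraries. SDF2L1, a component of the luminal chaperone complex, went from 420.2, 378 and 386 to 33.0 and 38.4, the lowest fold change of any gene with a mean of at least 5 (log2 fold change -3.43 ± 0.10 (SE), adjusted p = 2.1e-30). HSPA5, which encodes the main luminal chaperone BiP, fell from 1732, 1713 and 1778 to 368 and 368 (log2 fold change -2.24 ± 0.09 (SE), adjusted p = 1.7e-25). CRELD2 was at 228, 213 and 217 in the control libraries and 35.9 and 42.4 in the Torin libraries (log2 fold change -2.46 ± 0.12 (SE), adjusted p = 1.4e-22) and MANF, a secreted stress-induced factor, at 324, 241 and 228 in the control libraries and 55.8 and 41.2 in the Torin libraries (log2 fold change -2.42 ± 0.18 (SE), adjusted p = 1.4e-10). XBP1, the transcription factor of the IRE1 branch of the unfolded protein response, fell from 172, 176 and 162 to 54.1 and 58.3 (log2 fold change -1.58 ± 0.10 (SE), adjusted p = 4.8e-18). DNAJB9, a target of that branch, overlapped between groups with 13.3, 7.52 and 10.1 in the control libraries and 6.33 and 8.30 in the Torin libraries (log2 fold change -0.42 ± 0.26 (SE), adjusted p = 0.19).

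The ER stress response element, CCAAT and CCACG with 9 bases between them on either strand, was searched in the same windows, because the most reduced genes include textbook carriers of it. It was found in 7 of 35 promoters of the list (20%) and in 14 of the 9712 promoters of genes tested (0.144%). All 7 passed lower and 5 were called (median -1.58), and of the 28 without it 23 passed lower and 11 were called (median -0.88). The elements are given with 5 bases on each side, and CRELD2 with the 100 bases before its start site, capitals marking the element on the gene's strand.
CRELD2 (chr22:49918534-49918633, plus strand): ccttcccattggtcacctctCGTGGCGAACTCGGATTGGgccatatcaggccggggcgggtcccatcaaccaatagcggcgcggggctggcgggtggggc
HSPA5 (chr9:125241386-125241414, minus strand): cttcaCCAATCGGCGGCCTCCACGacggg
XBP1 (chr22:28800598-28800626, minus strand): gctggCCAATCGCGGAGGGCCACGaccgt
CALR (chr19:12938379-12938407, plus strand): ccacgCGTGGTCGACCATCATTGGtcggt
HSP90B1, distal (chr12:103930211-103930239, plus strand): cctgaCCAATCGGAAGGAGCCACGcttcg
HSP90B1, proximal (chr12:103930316-103930344, plus strand): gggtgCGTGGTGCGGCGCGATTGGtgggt
HSP90B1 is the ER member of the HSP90 family and CALR the lectin chaperone calreticulin. In CRELD2, CALR and the proximal element of HSP90B1 the element reads on the opposite strand.

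Cytosolic chaperones fell too, in 16 of 23 cases with none higher and 9 called lower (median -0.90), against 3.92% of all genes called lower. HSP90AA1, the inducible cytosolic HSP90, went from 8788, 8846 and 9461 to 4155 and 4102 (log2 fold change -1.13 ± 0.06 (SE), adjusted p = 1.9e-21), HSPA8, its constitutive HSP70 partner, from 737, 700.3 and 626 to 331 and 329 (log2 fold change -1.06 ± 0.11 (SE), adjusted p = 6.9e-10), DNAJA1 from 196, 168 and 187 to 65.9 and 59.7 and the co-chaperone STIP1 from 386, 376 and 333 to 138 and 149. HSPA1B was at 63.6, 72.0 and 58.9 in the control libraries and 10.8 and 10.19 in the Torin libraries (log2 fold change -2.52 ± 0.16 (SE), adjusted p = 9.7e-18), a near-identical copy of HSPA1A, so its reads are uncertain. HSF1, the factor that drives these genes under heat, overlapped between groups (log2 fold change -0.11 ± 0.12 (SE), adjusted p = 0.47). The heat shock element, GAA, TTC and GAA with 2 bases between each on either strand, was found in 5 of 20 promoters of the list (25%) and 0.35% of those of genes tested, and 4 of the 5 genes passed lower, as did 11 of the 15 without it. It is shown for the constitutive HSPA8 and for CHORDC1, an HSP90 co-chaperone, capitals marking the element or overlapping elements.
CHORDC1 (chr11:90223084-90223112, minus strand): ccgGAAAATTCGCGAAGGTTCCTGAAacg
HSPA8, distal (chr11:123062349-123062371, minus strand): agcttGAAAGTTCCAGAAcgctg
HSPA8, proximal (chr11:123062174-123062196, minus strand): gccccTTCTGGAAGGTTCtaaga

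The integrated stress response raises translation of ATF4, which switches on amino-acid synthesis, transport and tRNA charging. ATF4 RNA was slightly higher, with 400.3, 381 and 400.1 in the control libraries and 522 and 495 in the Torin libraries (log2 fold change 0.37 ± 0.07 (SE), adjusted p = 3.6e-05), and DDIT3, the CHOP gene, overlapped between groups with 34.5, 36.4 and 35.5 in the control libraries and 36.3 and 36.3 in the Torin libraries (log2 fold change 0.03 ± 0.13 (SE), adjusted p = 0.86). Other genes of this response were lower. TRIB3, a pseudokinase, went from 92.7, 89.1 and 98.7 to 58.1 and 47.4 (log2 fold change -0.82 ± 0.11 (SE), adjusted p = 3.1e-08), NUPR1, a stress-induced chromatin protein, from 17.1, 17.2 and 19.3 to 6.33 and 4.27 (log2 fold change -1.60 ± 0.27 (SE), adjusted p = 4.7e-06) and CEBPG, a partner of ATF4, from 26.95, 18.01 and 17.6 to 10.1 and 7.35. Over the list, 11 of 19 were lower and 2 higher (median -0.47).

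Genes that make serine, one-carbon units, asparagine and proline were lower in 12 of 17 cases and higher in none (median -0.61). ASNS, asparagine synthetase, fell from 45.9, 45.1 and 46.1 to 17.6 and 18.7 (log2 fold change -1.29 ± 0.16 (SE), adjusted p = 3.4e-09), MTHFD2, of mitochondrial folate metabolism, from 169.6, 137 and 142 to 56.3 and 55.5 (log2 fold change -1.40 ± 0.11 (SE), adjusted p = 1.3e-14) and PSAT1, of serine synthesis, from 28.8, 18.2 and 19.7 to 5.39 and 5.21 (log2 fold change -1.85 ± 0.30 (SE), adjusted p = 2e-06). Of 19 amino-acid transporters 11 were lower and 2 higher (median -0.30), against 23.4% and 20.3% of all genes. The glutamine transporter SLC1A5 was at 372, 376 and 374 in the control libraries and 193 and 165 in the Torin libraries (log2 fold change -1.06 ± 0.08 (SE), adjusted p = 8.9e-15) and SLC3A2, the heavy chain shared by several of them, at 454, 463 and 462 in the control libraries and 282 and 270.0 in the Torin libraries. SLC7A5 and SLC7A11 differed by -0.28 ± 0.10 and -0.30 ± 0.12 (log2 ± SE), and each lost its adjusted p under 0.05 on leaving out WT control replicate 2 or WT Torin replicate 3, and SLC7A5 also without WT Torin replicate 2.

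Among 37 aminoacyl-tRNA synthetases 15 were lower and 8 higher (median -0.16), against 23.4% and 20.3% of all genes. GARS fell from 217, 235 and 246 to 111 and 120.2 (log2 fold change -0.9997 ± 0.09 (SE), adjusted p = 1.8e-12), YARS from 146, 145 and 156 to 69.8 and 71.1, MARS from 223, 259.9 and 259 to 119 and 126 and WARS from 129, 114 and 131 to 63.3 and 61.9, all enzymes of the cytosol. PARS2, a mitochondrial enzyme, rose from 6.74, 6.33 and 6.05 to 16.9 and 11.4. The ATF4 motif (TGATGCAAT or TGATGAAAC, either strand) was in none of 15 stress response promoters, 2 of 11 of the serine and asparagine list, 1 of 16 transporters and 1 of 30 synthetases, against 0.227% of those of genes tested. It is shown in ASNS, the textbook case, in capitals.
ASNS (chr7:97872458-97872486, minus strand): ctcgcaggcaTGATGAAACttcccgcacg

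Cholesterol synthesis and uptake genes are driven by SREBP factors, which mTORC1 is known to promote. Of 25 tested 21 were lower and none higher, 10 being called where 3.92% of all genes were (median -0.86). The summed level was 2559 to 2715 in the control libraries and 1277 to 1331 in the Torin libraries. DHCR7, the reductase of the last step, fell from 61.6, 64.5 and 71.0 to 15.9 and 16.6 (log2 fold change -1.95 ± 0.16 (SE), adjusted p = 1.6e-14). SQLE, squalene epoxidase, was at 93.3, 102 and 101 in the control libraries and 43.4 and 46.7 in the Torin libraries and STARD4, a sterol carrier, at 13.1, 9.90 and 9.37 in the control libraries and 1.88 and 1.42 in the Torin libraries. The sterol response element (ATCAC followed by CCCAC or GCCAC, either strand) was in 1 of 18 promoters of this list, in none of 19 of fatty-acid synthesis and in 0.0721% of those of genes tested.

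Fatty-acid synthesis genes were lower in 10 of 20 cases and higher in 2 (median -0.40). SCD, the main desaturase, fell from 481, 515 and 516 to 311 and 297 (log2 fold change -0.73 ± 0.07 (SE), adjusted p = 1.2e-11) and the elongase ELOVL6 from 67.7, 65.3 and 70.3 to 21.6 and 22.0 (log2 fold change -1.59 ± 0.14 (SE), adjusted p = 2.6e-13), and SCD5 from 12.7, 11.1 and 11.3 to 3.28 and 5.21. FASN overlapped between groups (log2 fold change -0.18 ± 0.19 (SE), adjusted p = 0.47). LPIN1, a phosphatidate phosphatase that also restrains SREBP when mTORC1 is off, rose from 45.03, 54.8 and 47.6 to 124 and 113 (log2 fold change 1.25 ± 0.13 (SE), adjusted p = 2.5e-11). Uptake and oxidation genes were split, 8 of 23 higher and 6 lower, against 20.3% and 23.4% of all genes. Their median was -0.05, and positive without any 1 of the control libraries or WT Torin replicate 3. The fatty-acid transporter SLC27A1 rose from 9.53, 13.7 and 9.37 to 26.5 and 30.3 (log2 fold change 1.33 ± 0.19 (SE), adjusted p = 1.5e-07), SLC27A3 went from 6.24, 5.94 and 7.22 to 13.4 and 13.7 and SLC27A4 from 16.9, 15.8 and 14.1 to 7.5003 and 9.48, with an adjusted p of 0.059 for the last without WT Torin replicate 2. CPT1A overlapped between groups (log2 fold change -0.05 ± 0.31 (SE), adjusted p = 0.92).

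In purine and pyrimidine synthesis 13 of 25 were lower and 5 higher (median -0.32). CTPS1, CTP synthase, fell from 88.1, 88.9 and 85.3 to 19.2 and 27.5 (log2 fold change -1.88 ± 0.13 (SE), adjusted p = 1.1e-16), PPAT, the first enzyme of purine synthesis, from 39.1, 44.3 and 51.1 to 25.3 and 26.1, PRPS1 from 73.0, 56.2 and 58.2 to 29.8 and 32.2 and GMPS from 84.1, 83.5 and 96.4 to 44.1 and 47.6. CAD, the first enzyme of pyrimidine synthesis, overlapped between groups (log2 fold change 0.20 ± 0.16 (SE), adjusted p = 0.33), with 59.2 in WT control replicate 1 and 85.5 to 103 in the other controls, and its adjusted p was 0.036 without WT control replicate 2.

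Glycolysis and hypoxia genes were lower in 17 of 33 cases and higher in 3 (median -0.31). LDHA, lactate dehydrogenase A, fell from 658, 599 and 615 to 262 and 226 (log2 fold change -1.36 ± 0.08 (SE), adjusted p = 1.2e-18), HK2, hexokinase 2, from 51.3, 68.3 and 53.9 to 23.9 and 23.5 (log2 fold change -1.24 ± 0.13 (SE), adjusted p = 3.8e-11), ENO2 from 138, 139 and 145 to 51.1 and 50.2 and the glucose transporter SLC2A1 from 145, 151 and 153 to 84.8 and 74.9. HIF1A, the oxygen-regulated factor whose translation mTORC1 promotes, was at 63.6, 67.3 and 74.7 in the control libraries and 40.1 and 42.9 in the Torin libraries (log2 fold change -0.71 ± 0.11 (SE), adjusted p = 1.6e-06). NDRG1, which responds to hypoxia and is a substrate of the mTORC2-dependent kinase SGK1, rose from 4.44, 6.53 and 5.66 to 28.8 and 31.5 (log2 fold change 2.26 ± 0.19 (SE), adjusted p = 1.3e-13).

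Nuclear genes for mitochondria moved down by small steps. Of 77 respiratory chain subunits 44 were lower and 2 higher (median -0.27), with NDUFB6 at 42.1, 38.2 and 32.0 in the control libraries and 14.8 and 15.6 in the Torin libraries, ATP5G1, a membrane subunit of ATP synthase, at 385, 328 and 324 in the control libraries and 149.5 and 161 in the Torin libraries (log2 fold change -1.15 ± 0.09 (SE), adjusted p = 3.4e-14) and NDUFC2 at 78.6, 67.3 and 81.8 in the control libraries and 35.9 and 36.5 in the Torin libraries. Smaller differences were seen in NDUFA4 (-0.54 ± 0.09) and COX4I1 (-0.23 ± 0.07, adjusted p = 0.088 without WT Torin replicate 2). Of 77 mitochondrial ribosomal proteins 47 were lower and 3 higher (median -0.39), among them MRPL13, from 93.2, 73.8 and 78.1 to 36.3 and 43.6, MRPL18, from 107, 83.1 and 97.8 to 52.7 and 42.4, and MRPS11, from 67.9, 54.0 and 67.7 to 27.2 and 36.3. MRPS2 differed by -0.42 ± 0.10, and MRPL12 by -0.49 ± 0.15 with an adjusted p of 0.18 without WT Torin replicate 2. The coactivator gene PPARGC1A (PGC1α) overlapped between groups, with 25.1, 29.9 and 27.7 in the control libraries and 22.3 and 30.1 in the Torin libraries (log2 fold change -0.08 ± 0.16 (SE), adjusted p = 0.7), and TFAM, which packages mitochondrial DNA, fell from 245, 206 and 223 to 148 and 141 (log2 fold change -0.63 ± 0.08 (SE), adjusted p = 1.3e-08). Among the 12 regulators 5 were lower, NRF1 from 20.9, 18.2 and 16.2 to 11.02 and 10.9, GABPB1 and PPARGC1B among them, and 1 higher (median -0.08, 0.03 without WT Torin replicate 2). GABPB1 had an adjusted p of 0.053 without WT Torin replicate 2, and PPARGC1B one of 0.17 without replicate 3.

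The proteasome fell nearly throughout, 30 of 37 members lower and 1 higher with 4 called lower where 3.92% of all genes were (median -0.67). In 36 of the 37 the groups did not overlap, against 60.1% of all genes. PSMD14, the lid deubiquitinase, went from 339, 296 and 299.9 to 137 and 121 (log2 fold change -1.27 ± 0.09 (SE), adjusted p = 2.3e-16), PSMD1 from 476, 564 and 564 to 237 and 235 (log2 fold change -1.17 ± 0.08 (SE), adjusted p = 1.7e-16), PSMD11 from 411, 359.9 and 370.2 to 179 and 177 and the core subunit PSMA1 from 120.3, 105 and 107 to 56.5 and 80.6. NFE2L1, the factor that raises proteasome genes when the proteasome is blocked, did not pass (log2 fold change -0.21 ± 0.11 (SE), adjusted p = 0.11).

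Lysosome and autophagy genes, the textbook targets of TFEB and TFE3, did not move in 1 direction. Of 42 lysosomal hydrolases and membrane proteins 16 were higher and 6 lower (median 0.18), against 20.3% and 23.4% of all genes. CTSF, cathepsin F, rose from 25.3, 28.9 and 32.8 to 95.4 and 95.3 (log2 fold change 1.69 ± 0.13 (SE), adjusted p = 4e-15), CTSD, cathepsin D, from 112, 133 and 142 to 182 and 175 and MANBA, a mannosidase, from 6.24, 5.34 and 1.95 to 11.5 and 11.6. GLA, α-galactosidase A, fell from 19.9, 19.2 and 19.5 to 7.27 and 5.21 (log2 fold change -1.52 ± 0.19 (SE), adjusted p = 5.8e-09). LAMP1, the main membrane protein, was at 479, 393 and 424 in the control libraries and 385 and 378 in the Torin libraries and did not pass (log2 fold change -0.17 ± 0.08 (SE), adjusted p = 0.094), though its adjusted p was 0.03 without WT control replicate 2, and neither did MCOLN1, the calcium channel of the lysosome (log2 fold change 0.31 ± 0.30 (SE), adjusted p = 0.42), or GPNMB (log2 fold change 0.00 ± 0.09 (SE), adjusted p = 0.98). The summed level was 7763 to 8722 in the control libraries and 7489.7 to 7693 in the Torin libraries.

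The vacuolar ATPase acidifies the lysosome. Of its 19 subunit genes 10 fell and none rose (median -0.31), and the summed level was 3108 to 3431 in the control libraries and 2240.5 to 2316 in the Torin libraries. ATP6V0B went from 341, 344 and 324 to 127 and 127 (log2 fold change -1.40 ± 0.10 (SE), adjusted p = 9.8e-17), ATP6V0E2 from 60.3, 43.3 and 59.5 to 25.5 and 26.8, ATP6V1E1 from 390.3, 359.9 and 355 to 219 and 194 and ATP6V0D1 from 73.3, 71.7 and 71.8 to 48.3 and 43.6, while ATP6V1H overlapped between groups (log2 fold change -0.07 ± 0.14 (SE), adjusted p = 0.71).

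Of 36 autophagy genes 13 rose and 7 fell (median 0.10), against 20.3% and 23.4% of all genes. The cargo receptors differed among themselves. NBR1 rose from 45.03, 48.9 and 41.6 to 119 and 118 (log2 fold change 1.37 ± 0.11 (SE), adjusted p = 4.6e-15) and OPTN (optineurin) from 20.9, 20.2 and 17.8 to 49.2 and 51.0 (log2 fold change 1.31 ± 0.13 (SE), adjusted p = 2.8e-11), while SQSTM1, the p62 gene, fell from 391, 381 and 396 to 259 and 262 (log2 fold change -0.58 ± 0.08 (SE), adjusted p = 2.4e-08). ULK1, the kinase that starts autophagy and that mTORC1 inhibits, rose from 20.2, 23.0 and 18.1 to 39.8 and 39.1 (log2 fold change 0.92 ± 0.17 (SE), adjusted p = 2.2e-05), and ATG2A, a lipid transfer protein, from 26.0, 19.99 and 26.3 to 54.6 and 63.8. MAP1LC3B, the LC3B gene, overlapped between groups (log2 fold change -0.15 ± 0.13 (SE), adjusted p = 0.38).

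E-boxes of the MITF family (TCACGTG or TCATGTG, either strand) were present in 13 of 27 lysosomal promoters (48.2%), 4 of 14 of the vacuolar ATPase, 3 of 31 of autophagy genes and 7 of 25 of melanocyte genes, against 7.61% of those of genes tested. Carriers went both ways. Of the 13 lysosomal carriers 6 passed higher and 2 lower, and all 4 vacuolar ATPase carriers passed lower. Of the 14 lysosomal genes without the motif 2 passed higher and 2 lower, and of the 10 vacuolar ATPase genes without it 4 passed lower. Shown are LAMP1, which holds 6 such boxes, 5 of them in the stretch shown, and did not pass, CTSF and GAA (acid α-glucosidase), called higher, and ATP6V0B, called lower, with the boxes in capitals.
LAMP1 (chr13:113297039-113297238, plus strand): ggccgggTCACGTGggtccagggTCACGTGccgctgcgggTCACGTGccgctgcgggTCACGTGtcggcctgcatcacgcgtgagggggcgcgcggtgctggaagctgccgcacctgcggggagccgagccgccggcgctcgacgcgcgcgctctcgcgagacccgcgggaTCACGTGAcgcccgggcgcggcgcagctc
CTSF (chr11:66568713-66568739, minus strand): atataacaagCACGTGAtagaggtcag
GAA, distal (chr17:80101494-80101521, plus strand): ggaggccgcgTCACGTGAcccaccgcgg
GAA, proximal (chr17:80101539-80101566, plus strand): ctcccgccggTCACGTGAcccgcctctg
ATP6V0B, distal (chr1:43974892-43974918, plus strand): cggcgtggggTCACGTGgtaccggcgc
ATP6V0B, proximal (chr1:43974910-43974936, plus strand): taccggcgcaTCACGTGggcgagttag

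Melanocyte differentiation and pigment genes were higher in 15 of 29 cases, 5 of them called where 5.57% of all genes were, and lower in 3 (median 0.30). PMEL rose from 2334, 2362 and 2355 to 3541 and 3739 (log2 fold change 0.63 ± 0.06 (SE), adjusted p = 2.4e-12), OCA2, a melanosomal transporter, from 25.5, 29.7 and 29.7 to 75.2 and 74.0 (log2 fold change 1.37 ± 0.13 (SE), adjusted p = 7.5e-12), TFAP2A, a lineage transcription factor, from 347, 334 and 317 to 694 and 736 and MLPH, which carries melanosomes on actin, from 51.4, 59.8 and 56.4 to 133 and 110.0. SOX10, the lineage factor upstream of MITF, rose from 447, 466 and 443 to 548 and 543 (log2 fold change 0.27 ± 0.07 (SE), adjusted p = 0.0018). TYR, the rate-limiting enzyme of melanin synthesis, fell from 198, 171 and 194 to 134 and 132 (log2 fold change -0.49 ± 0.09 (SE), adjusted p = 1.4e-05), and DCT, an enzyme of the same pathway, did not pass (log2 fold change -0.08 ± 0.08 (SE), adjusted p = 0.44). TYR and PMEL thus differed in direction in the same libraries.

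Receptor tyrosine kinases of melanoma passed higher in 6 of 15 cases and lower in none (median 0.39). KIT, the melanocyte growth factor receptor, went from 119, 129 and 120.0 to 248 and 248 (log2 fold change 1.01 ± 0.10 (SE), adjusted p = 5.8e-12), IGF1R from 69.0, 105 and 84.7 to 162 and 189 (log2 fold change 1.03 ± 0.11 (SE), adjusted p = 6.1e-11) and MET from 136, 159.7 and 176 to 207 and 203. AXL, which marks the undifferentiated state, had no value above 1.88 in any of the 5 libraries (log2 fold change 0.56 ± 0.33 (SE), adjusted p = 0.16).

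Matrix and adhesion genes were higher in 16 of 31 cases, 7 of them called where 5.57% of all genes were, and lower in 1 (median 0.31). FN1, fibronectin, rose from 48.0, 87.9 and 77.1 to 253 and 281 (log2 fold change 1.94 ± 0.21 (SE), adjusted p = 6.5e-07), COL6A1, a collagen VI chain, from 9.20, 13.3 and 10.9 to 32.1 and 32.5 and CTGF (CCN2), a matricellular target of YAP and TGFβ, from 41.4, 47.5 and 39.0 to 114 and 112 (log2 fold change 1.39 ± 0.19 (SE), adjusted p = 2.4e-07). Of 22 MAPK pathway output genes 3 were higher and 2 lower (median 0.08), against 20.3% and 23.4% of all genes. DUSP6, an ERK phosphatase induced by ERK, rose from 230.1, 243 and 220.1 to 323 and 318 (log2 fold change 0.47 ± 0.08 (SE), adjusted p = 2e-06) and PHLDA1 from 152, 134 and 143 to 203 and 199, while SPRY2 did not pass (log2 fold change 0.31 ± 0.19 (SE), adjusted p = 0.18) and EGR1 was at 15.4, 20.2 and 15.6 in the control libraries and 12.0 and 9.24 in the Torin libraries, with adjusted p = 0.022 that rose to 0.22 without WT Torin replicate 3 and 0.1 without WT control replicate 2.

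In the BCL2 family 4 of 16 were higher and 5 lower (median 0.01), against 20.3% and 23.4% of all genes. BBC3 and BMF rose, the latter from 2.79, 3.76 and 3.71 to 17.6 and 21.6 (log2 fold change 2.22 ± 0.23 (SE), adjusted p = 3.4e-11), PMAIP1 fell as given above, and BCL2L11 (BIM) overlapped between groups (log2 fold change 0.04 ± 0.21 (SE), adjusted p = 0.91). MCL1, a short-lived survival protein, fell from 196, 193 and 161 to 141 and 130.4 (log2 fold change -0.42 ± 0.09 (SE), adjusted p = 0.00013). BCL2 differed by 0.40 ± 0.16 (log2 ± SE), with an adjusted p above 0.05 on leaving out WT control replicate 1 or 2 or either Torin library.

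Genes of the p53 response did not move together. Of 23, 6 were higher and 7 lower (median -0.13), against 20.3% and 23.4% of all genes. MDM2, a ubiquitin ligase, fell from 57.2, 66.5 and 63.8 to 33.0 and 32.0 (log2 fold change -0.92 ± 0.13 (SE), adjusted p = 8e-08), TIGAR, a fructose bisphosphatase, from 32.2, 29.9 and 29.1 to 7.5003 and 7.58 (log2 fold change -1.88 ± 0.16 (SE), adjusted p = 1.3e-13) and the nuclease gene AEN from 114, 114 and 115 to 45.2 and 49.8. CDKN1A was not analysed here.

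Interferon and antigen presentation genes passed higher in 7 of 38 cases and lower in 2 (median 0.17), against 20.3% and 23.4% of all genes. STAT2, a subunit of the interferon-activated factor ISGF3, rose from 31.7, 32.5 and 32.2 to 97.03 and 98.8 (log2 fold change 1.58 ± 0.12 (SE), adjusted p = 2.7e-15). HLA-E went from 39.1, 38.6 and 44.9 to 60.5 and 75.1 and TAPBP, the peptide-loading chaperone tapasin, from 34.7, 33.3 and 40.4 to 50.9 and 48.1. B2M, the light chain of MHC class I, overlapped between groups (log2 fold change 0.01 ± 0.10 (SE), adjusted p = 0.95) and IFIT1 was at 2.73 or less in all libraries.

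Iron and NRF2 genes were lower in 12 of 22 cases and higher in 1 (median -0.33). TFRC, the transferrin receptor, fell from 388, 444 and 389.7 to 182 and 162 (log2 fold change -1.24 ± 0.09 (SE), adjusted p = 4.2e-16), GCLM, a subunit of glutathione synthesis, from 111, 113 and 120.4 to 60.0 and 44.8 and SLC11A2, the iron transporter DMT1, from 78.9, 87.3 and 82.7 to 51.3 and 44.1. NQO1, the classic NRF2 target, fell from 552, 484 and 507 to 397 and 406 (log2 fold change -0.36 ± 0.09 (SE), adjusted p = 0.00075). FTH1, ferritin heavy chain, differed by 0.19 ± 0.07 (log2 ± SE), with an adjusted p above 0.05 without WT control replicate 2 or 3 or either Torin library.

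The response was then set beside that of the knockout clones, which share no library with it. Of the 724 genes called higher in WT cells, 715 had the same sign in TFE3 KO, 709 in TFEB KO and 717 in DKO cells, and 640, 541 and 644 of them passed there. For the 509 called lower the same sign was seen in 495, 491 and 501, and 456, 420 and 448 passed. In the opposite direction 1 gene passed in TFE3 KO and 1 in DKO cells. Over all 12991 genes tested, 3282 passed higher in TFE3 KO, 2242 in TFEB KO and 3280 in DKO cells. Those that passed lower numbered 3375 in TFE3 KO, 2727 in TFEB KO and 3410 in DKO cells. The median log2 fold change of the genes called higher was 1.19 in TFE3 KO, 0.87 in TFEB KO and 1.17 in DKO cells beside 1.23 in WT, and that of the genes called lower -1.18, -0.83 and -1.14 beside -1.18. The WT medians are a description, since the genes were chosen by them. The altered spike-in mixture was shared by the Torin libraries of all 4 genotypes. The targeted genes were low in the clones, with TFE3 at 6.30 ± 1.27 (SD, n = 3) in TFE3 KO and 6.35 ± 0.47 in DKO control libraries against 24.0 in WT, and TFEB at 1.11 ± 0.485 in TFEB KO, 0.661 ± 0.457 in DKO and also 0.681 ± 0.764 in TFE3 KO against 3.25 in WT. Reads at a 3′ end need not report an edit elsewhere in the gene.

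The list medians for DNA replication were -1.29 in TFE3 KO, -0.71 in TFEB KO and -1.26 in DKO cells, for cholesterol -0.70 in TFE3 KO, -0.79 in TFEB KO and -0.65 in DKO cells, for cytosolic heat shock proteins -0.78 in TFE3 KO, -0.91 in TFEB KO and -0.74 in DKO cells and for the insulin, PI3K and FOXO list 0.76 in TFE3 KO, 0.32 in TFEB KO and 0.67 in DKO cells. For ER folding they were -0.54 in TFE3 KO, -0.86 in TFEB KO and -0.59 in DKO cells, beside -0.97 in WT, and for lysosomal genes 0.10 in TFE3 KO, 0.14 in TFEB KO and 0.04 in DKO cells, beside 0.18. Single genes such as BBC3 (2.87 in TFE3 KO, 2.25 in TFEB KO and 2.63 in DKO cells), CTSF (1.72 in TFE3 KO, 1.38 in TFEB KO and 1.86 in DKO cells) and CDC6 (-2.58 in TFE3 KO, -1.65 in TFEB KO and -2.22 in DKO cells) moved in the same direction in all clones.

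Whether a clone responded differently from WT was tested by the interaction. It called 36 genes for TFE3 KO (0.277%), 27 for TFEB KO (0.208%) and 21 for DKO cells (0.162%). Leaving out WT Torin replicate 3 gave 15 for TFEB KO, and for DKO cells the count was 13 without WT control replicate 2, 9 without control replicate 3, 13 without Torin replicate 2 and 12 without Torin replicate 3. At an adjusted p under 0.05 without a limit on the fold, 65 genes were higher (0.500%) and 75 lower (0.577%) for TFE3 KO, 108 (0.831%) and 46 (0.354%) for TFEB KO, and 41 (0.316%) and 25 (0.192%) for DKO cells. The clone controls are labelled 12 h, whereas the WT control has no time label. A time effect in the WT response thus cannot be told apart in the interactions. With a single clone for each genotype, loss of the gene cannot be told apart from a difference between clones.

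Among ER folding genes the interaction passed in both clones without TFE3. It was higher, meaning a weaker fall, in 11 of 39 members for TFE3 KO (background 0.500%) and 8 of 39 for DKO (0.316%), and in none for TFEB KO (0.831%). HSPA5 went from 687 ± 28.8 to 306 ± 15.3 (SD, n = 3) in TFE3 KO and from 747 ± 62.2 to 355 ± 25.2 in DKO cells, while it went from 2101 ± 268 to 436 ± 51.1 in TFEB KO and from 1741 to 368 in WT. The interaction was 1.07 ± 0.12 (SE), adjusted p = 2.2e-08, for TFE3 KO and 1.17 ± 0.12 (SE), adjusted p = 4.6e-09, for DKO cells. The Torin means, 306 to 436, lay closer together than the control means, 687 to 2101. SDF2L1 showed the same, with controls at 175 ± 6.01 in TFE3 KO and 196 ± 29.5 in DKO cells against 389 ± 31.8 in TFEB KO, and Torin values of 33.6 ± 2.55, 30.9 ± 0.706 and 45.9 ± 3.67 (interaction for TFE3 KO 1.09 ± 0.14 (SE), adjusted p = 1.5e-06). XBP1 fell by 1.02 on the log2 scale in TFE3 KO cells (interaction 0.55 ± 0.13 (SE), adjusted p = 0.023). Differences between control libraries of the genotypes were not tested here. The interactions for TFE3 KO and DKO cells subtract the same WT change, so they are not independent of each other. SDF2L1 was also named for its large fall in WT, a choice that favours a weaker fall in a clone.

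PSAT1 and NUPR1 were called as well, with almost no reads in these clones. In control libraries PSAT1 was at 0.491 ± 0.426 in TFE3 KO and 0.156 ± 0.157 in DKO cells, means at or under what 3 reads give, so the fitted interaction depends on the added 1 (1.56 ± 0.41 (SE), adjusted p = 0.042, and 1.82 ± 0.41 (SE), adjusted p = 0.021). NUPR1 was at 0.206 ± 0.179 in TFE3 KO controls (interaction 1.70 ± 0.37 (SE), adjusted p = 0.0097). The largest interactions for TFE3 KO were otherwise CRYAB, a small heat shock protein (2.67 ± 0.26 (SE), adjusted p = 9.8e-10), and RORB, an orphan nuclear receptor (1.84 ± 0.29 (SE), adjusted p = 0.00011), both higher, and SHISA2 (-1.78 ± 0.33 (SE), adjusted p = 0.0016), FOSL1, an AP-1 subunit (-1.57 ± 0.41 (SE), adjusted p = 0.04), and FAM111B (-1.42 ± 0.34 (SE), adjusted p = 0.024), all lower. TFE3 itself was called higher for TFE3 KO (1.01 ± 0.26 (SE), adjusted p = 0.04), from 6.30 ± 1.27 to 10.8 ± 2.80. Among DNA replication genes 6 of 57 were lower for TFE3 KO (0.577%) and 3 for DKO cells (0.192%), and 5 were higher for TFEB KO (0.831%).

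For TFEB KO the interaction mostly gave weaker responses among the named genes. Many named genes were chosen by a large change in WT, and the interaction subtracts that same change. The choice itself thus favours weaker responses in a clone, and the count of weaker responses is a description only. RRM2 went from 205 ± 12.4 to 82.1 ± 4.02 (interaction 1.06 ± 0.12 (SE), adjusted p = 5.2e-07), ATP1B1 from 45.9 ± 4.03 to 28.9 ± 3.97 (1.70 ± 0.29 (SE), adjusted p = 0.00085) and TIGAR from 28.7 ± 4.58 to 17.7 ± 1.87 (1.22 ± 0.22 (SE), adjusted p = 0.0013). GLA (1.07 ± 0.26 (SE), adjusted p = 0.02) fell less than in WT and SCD5 (1.39 ± 0.29 (SE), adjusted p = 0.0073) did not pass in TFEB KO cells, while SNORD13 (-1.004 ± 0.27 (SE), adjusted p = 0.041) and OLFML2A (-1.57 ± 0.36 (SE), adjusted p = 0.015) rose less. OVAAL (1.60 ± 0.36 (SE), adjusted p = 0.013) and MTHFD2P1 (1.57 ± 0.27 (SE), adjusted p = 0.0013), a pseudogene with uncertain reads, were the next highest, and NLGN2 (-1.52 ± 0.34 (SE), adjusted p = 0.013) and PRICKLE1 (-1.40 ± 0.33 (SE), adjusted p = 0.02) the next lowest. For DKO cells TFRC (-1.02 ± 0.12 (SE), adjusted p = 2.1e-07) and E2F2 (-1.16 ± 0.26 (SE), adjusted p = 0.021) fell further than in WT, and CTGF (1.28 ± 0.25 (SE), adjusted p = 0.0097) rose further. CYR61 (CCN1, related to CTGF, 1.55 ± 0.22 (SE), adjusted p = 4.5e-05) and CRYAB (1.90 ± 0.26 (SE), adjusted p = 5.6e-06) had higher interactions too.

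**Figure D4:**
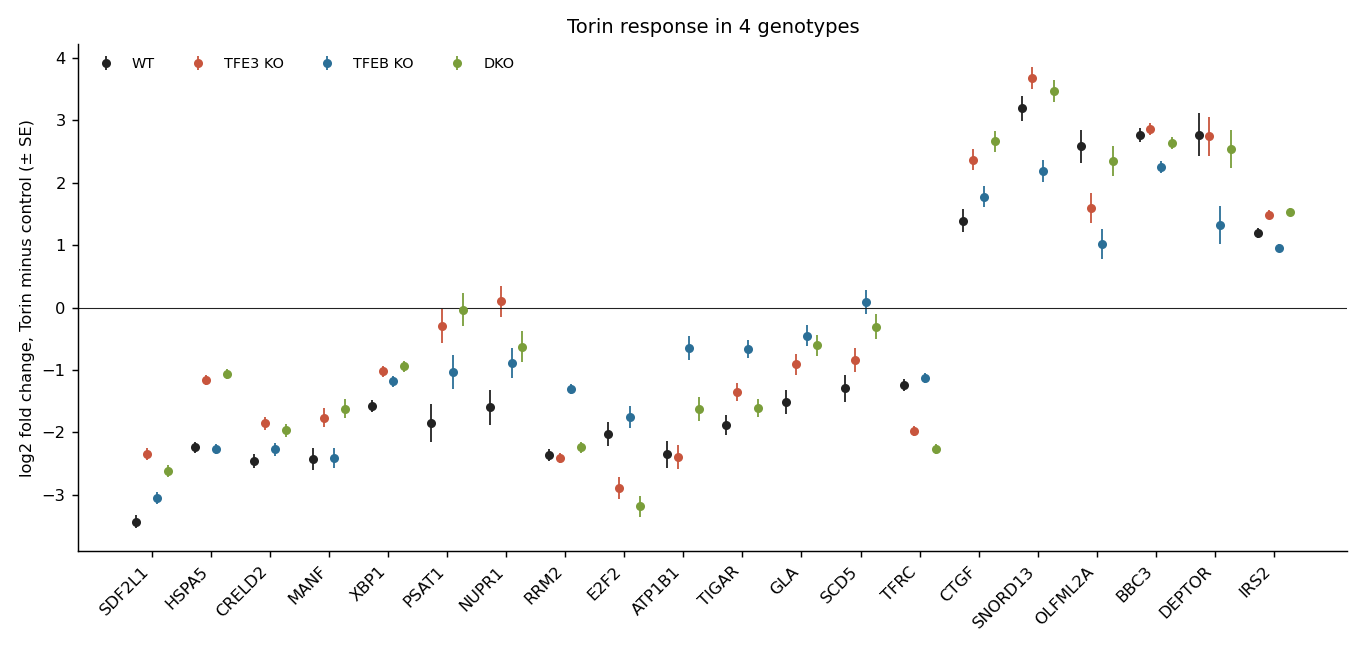
Log2 fold change, Torin minus control (± SE), of 20 genes in WT (black), TFE3 KO (red), TFEB KO (blue) and DKO (green) cells. HSPA5 lies at -2.24 in WT and at -1.16 in TFE3 KO, -2.27 in TFEB KO and -1.07 in DKO cells, while BBC3 lies between 2.25 and 2.87 in all.

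Starvation in HBSS also removes amino acids and growth factors from mTORC1, and WT Torin was compared with WT HBSS directly, with no control library in the test. Of 12991 genes 2144 were called (16.5%), and 2990 passed higher (23.0%) and 3391 lower (26.1%) in the Torin libraries. The spike-in mixture differed between these groups as well. Genes of the integrated stress response were lower with Torin. All 19 tested members passed lower with Torin and 17 were called, where 16.5% of all genes were. SESN2 was at 6.09 and 6.16 in the Torin libraries against 201.4 and 219 in the HBSS libraries (-4.89 ± 0.22 (SE), adjusted p = 1.6e-23), ASNS at 17.6 and 18.7 with Torin against 202 and 207 with HBSS (-3.42 ± 0.17 (SE), adjusted p = 9e-22), TRIB3 at 58.1 and 47.4 with Torin against 409.6 and 370.4 with HBSS (-2.87 ± 0.12 (SE), adjusted p = 1.4e-24) and ATF4 at 522 and 495 with Torin against 1412 and 1474 with HBSS (-1.50 ± 0.08 (SE), adjusted p = 2.9e-21). SESN2, ASNS and CHAC1, which degrades glutathione, were the 3 lowest of the genes named by rule (for CHAC1 -3.39 ± 0.27 (SE), adjusted p = 1.9e-14). Compared with control, which the HBSS fold changes share with those of Torin, the list had a median of -0.47 after Torin and 1.76 after HBSS.

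**Figure D5:**
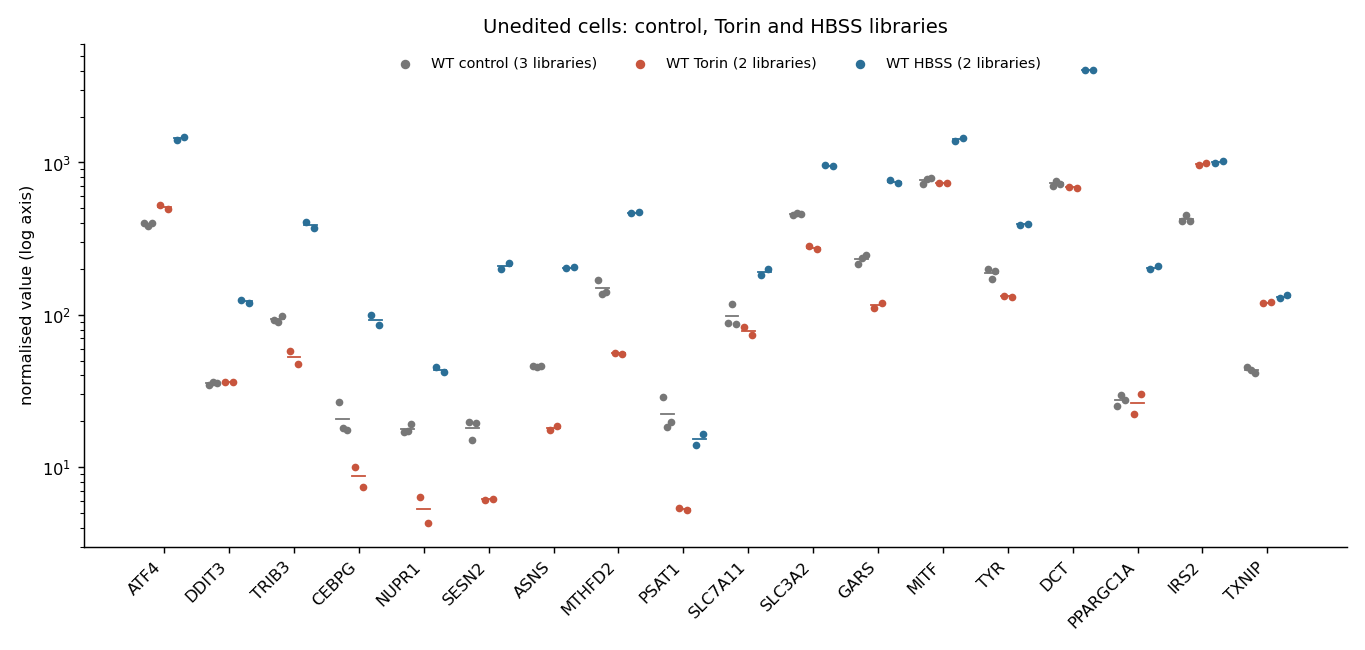
Normalised value (log axis) of 18 genes in WT control (grey, 3 libraries), WT Torin (red, 2) and WT HBSS (blue, 2) libraries, lines for group means. From ATF4 to GARS the HBSS libraries lie above the Torin libraries, as they do for MITF, TYR, DCT and PPARGC1A, whereas IRS2 and TXNIP lie close together after both treatments.

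Some pigment genes and the PGC1α gene also differed. Of 29 melanocyte differentiation and pigment genes 15 passed lower with Torin and 6 higher, against 26.1% and 23.0% of all genes. Of these 29, 5 were called, where 16.5% of all genes were. MITF was at 735 and 732 with Torin against 1392 and 1454 with HBSS (-0.95 ± 0.07 (SE), adjusted p = 6e-15), DCT at 693 and 682 with Torin against 4030.4 and 4047 with HBSS (-2.55 ± 0.09 (SE), adjusted p = 1.7e-27), TYR at 134 and 132 with Torin against 391 and 393 with HBSS (-1.55 ± 0.10 (SE), adjusted p = 7e-18) and PPARGC1A at 22.3 and 30.1 with Torin against 199 and 208 with HBSS (-2.93 ± 0.17 (SE), adjusted p = 4.7e-19). TFEB was at 5.63 and 4.27 with Torin against 30.4 and 28.0 with HBSS (-2.35 ± 0.39 (SE), adjusted p = 2.3e-06). MITF, DCT, TYR, PPARGC1A and TFEB were all lower with Torin by more than the spread of the libraries. SCD (-1.62 ± 0.08 (SE), adjusted p = 3.2e-22) and XBP1 (-1.57 ± 0.11 (SE), adjusted p = 1.1e-16) were lower with Torin too. Higher with Torin were LOC100131564 (3.21 ± 0.26 (SE), adjusted p = 1.4e-13), SNORD13 (2.998 ± 0.22 (SE), adjusted p = 4.4e-16) and TIGD5 (2.92 ± 0.24 (SE), adjusted p = 2.3e-14), and STAT2 (1.87 ± 0.13 (SE), adjusted p = 1.5e-16) and BMF (1.93 ± 0.25 (SE), adjusted p = 1.2e-08).

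For other genes the difference did not pass. IRS2 was at 958 and 999 with Torin against 993 and 1029.9 with HBSS (-0.05 ± 0.08 (SE), adjusted p = 0.66), TXNIP at 119 and 121 with Torin against 128 and 134 with HBSS (-0.13 ± 0.10 (SE), adjusted p = 0.31) and HSP90AA1 at 4155 and 4102 with Torin against 3889 and 3983 with HBSS (0.07 ± 0.06 (SE), adjusted p = 0.38). IRS2 and TXNIP do not stand for the whole insulin, PI3K and FOXO list. Of its 35 members 10 were called in this test, where 16.5% of all genes were. With Torin 6 of the 35 passed higher and 12 lower, against 23.0% and 26.1% of all genes. Ribosomal proteins had no called member of 79 in this test and 9 that passed higher with Torin. In mitosis genes, by contrast, 30 of 41 passed lower with Torin than with HBSS (26.1% of all genes) and none higher, and in ER folding 26 of 39 passed lower and none higher. Lower with Torin than with HBSS were also 17 of 42 lysosomal genes, with 3 higher, 22 of 36 autophagy genes, with 5 higher, and 49 of 77 respiratory chain genes, with 2 higher. HSPA5 was at 368 and 368 with Torin against 502 and 517 with HBSS (-0.47 ± 0.10 (SE), adjusted p = 6.7e-05).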

How the data were processed

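RNA of 501mel cells was sequenced by QuantSeq Forward, which reads the 3′ ends of polyadenylated transcripts, on an Illumina NextSeq. Per the labels and the study's methods, reads were trimmed (cutadapt 2.10, trim_galore 0.6.5), checked with FastQC 0.11.9, aligned to hg38 with STAR 2.7.8a and normalised with edgeR. The deposited values, a signal here, are CPM that the authors divided by a library scaling factor. Gene totals differed with these factors, and whole read counts could be recovered for 100% of values (tolerance 0.01 of a read). The 64 spike-in rows, 3.21% to 4.79% of reads in the 5 libraries, stayed out of totals and tests.

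Values were tested as log2(value + 1) with limma 3.58.1 in R 4.3.3 (moderated by trend, robust) over the 12991 genes that reached 1 in 3 or more libraries. The fit held 25 libraries, which share 1 estimate of spread, and p-values were adjusted by Benjamini-Hochberg over all genes tested. Fold changes on this scale understate those of low genes. Intervals are at 95%. edgeR 4.0.16 and DESeq2 1.42.0 on recovered reads were alternatives, beside another pseudocount, filter and scaling, a replicate block, each library left out and, chosen after seeing the data, spike-ins kept. The fit was tested on simulated data.

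Named genes were TFEB, TFE3 and MITF, the 10 highest and 10 lowest called genes with a mean of at least 5 and no overlap, fixed anchors of each list, the up to 3 members of each list with the largest change among those that passed with a mean of at least 5, and, for interactions and the HBSS test, named genes called there and the 3 highest and 3 lowest called. Some genes that this rule names are not reported here. Other members carrying a printed promoter sequence were chosen after their values were seen. Members and lists were chosen with earlier results of these data known. Promoters came from RefSeq (GRCh38.p14, 9712 of 12991 genes matched by symbol).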

Additional observations from a re-analysis of the deposited data

Results flagged for a closer look

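Torin responses that differed between a knockout clone and WT by the interaction test, among the genes named by rule for WT Torin, were these, as log2 differences. For TFE3 KO they were TFE3 (1.007), SDF2L1 (1.086), HSPA5 (1.073), PSAT1 (1.557) and NUPR1 (1.703). For TFEB KO they were SNORD13 (-1.003), OLFML2A (-1.571), RRM2 (1.06), ATP1B1 (1.699), SCD5 (1.39), GLA (1.069) and TIGAR (1.216). For DKO they were HSPA5 (1.169), PSAT1 (1.824), TFRC (-1.024), E2F2 (-1.162) and CTGF (1.277). Of these genes, HSPA5 was found in both clones that lack TFE3 at a high level of reads, and PSAT1 in both at almost none. CRYAB, named only among the largest interactions, was also called in both, at 2.67 for TFE3 KO and 1.90 for DKO. Both interactions subtract the same WT change, so calls in both clones are not independent of each other.

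The spike-ins, which enter no comparison of genes, took 4.611% of the reads in the WT Torin libraries on average, above the 3.21% to 3.77% of the WT control libraries.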

How the results depend on the processing

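Of the 205 genes named by rule, between 198 and 205 kept their direction and their side of the threshold under a pseudocount of 0.1, no filter, median-of-ratios scaling, edgeR, DESeq2, the 5 libraries alone, the replicate block or spike-ins kept (the last chosen after seeing the data), and at least 189 without any 1 library. Genes called in WT numbered 1591 with a pseudocount of 0.1, 1017 with a minimum value of 5, 1566 by edgeR, 1533 by DESeq2, 1087 in the 5 libraries alone, 1261 with spike-ins kept, 1234 with median-of-ratios scaling (795 higher, 439 lower) and 1212 to 1384 without 1 library. Same-numbered libraries did not deviate together (correlations 0.0087 and 0.029 in WT, -0.047 to 0.15 in the clones), so the number does not pair them, and with a replicate block 1233 genes were called, 1183 of them shared with the main result. With the column carrying both labels counted as WT Torin, 792 genes were called (617 shared), 460 higher and 332 lower, and the interaction called 9 for TFE3 KO and 1 for TFEB KO. That column then reversed the list medians of mTOR inputs (0.0512), mitosis (0.0863), fatty-acid oxidation (0.049), stress response (0.14) and BCL2 (-0.0917), and MITF (0.29), SESN2 (0.274), MKI67 (0.219), HIST2H2BE (0.195), FASN (0.108), TRIB3 (0.153), SLC7A11 (0.0913), SLC7A5 (0.0575), PPARGC1A (0.915), NFE2L1 (0.0125), MAP1LC3B (0.0663), DCT (0.828), TYR (0.0794), SPRY2 (-0.0818) and IFIT1 (-0.305). Other reversals lay near 0. DESeq2 gave 0.0111 for mTOR inputs, 0.0336 for CCND1 and -0.0889 for IFIT1. edgeR gave -0.00505 for the BCL2 list, 0.00291 for CCND1, -0.00762 for BCL2L11 and -0.116 for IFIT1. The BCL2 list was at -0.0266 with a minimum of 5 and -0.0133 in the 5 libraries alone, GPNMB at -0.00249 with the replicate block, and mTOR inputs and CCND1 at 0.0168 and 0.0372 with median-of-ratios scaling. Without 1 library, interaction calls ranged from 15 to 28 for TFEB KO and 9 to 24 for DKO. List medians ranged from -0.0606 to 0.000361 for mTOR inputs, -0.0197 to 0.337 for MYC, -0.0715 to 0.0434 for fatty-acid oxidation, -0.179 to 0.0284 for PGC1 and -0.0905 to 0.183 for BCL2. Fold changes ranged from -0.114 to 0.0754 for CCND1, -0.398 to 0.0507 for MKI67, -0.402 to 0.32 for HIST2H2BE, -0.188 to 0.0914 for CPT1A, -0.0158 to 0.38 for CAD, -0.293 to 0.125 for PPARGC1A, -0.0651 to 0.0441 for GPNMB, -0.152 to 0.27 for BCL2L11, -0.07997 to 0.119 for B2M and -0.458 to 0.533 for IFIT1. The cause of these changes was not tested. Values under about 0.7, 3 reads in the shallowest library, carry no level, and 2 Torin libraries limit every estimate.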

Other observations

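The column labelled as both WT Torin replicate 1 and WT HBSS replicate 3 stood at 238 for SESN2, 226 for ASNS, 403 for TRIB3, 4570.4 for DCT and 214 for PPARGC1A. Its root mean square log2 distance was 0.318 from the mean of the other HBSS libraries, 0.701 from the WT control mean and 0.758 from the mean of the other Torin libraries, where those 2 Torin libraries were 0.381 apart. Its spike-ins stood at 17821 for ERCC-00130 and 10635 for ERCC-00002.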
